A study of Mus musculus with 74 samples.

Results

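The genes described here are 10 regulators that many epithelia share: the Grainyhead-like transcription factors Grhl1, Grhl2 and Grhl3, the ETS factors Elf3 and Ehf, the Krüppel-like factors Klf4 and Klf5, the splicing regulators Esrp1 and Esrp2, and the zinc finger repressor Ovol1. They were chosen by name, and all 10 were found among the 24015 gene symbols of the count table. The study profiled purified epithelium of the developing mouse gut, and its RNA part holds 31 libraries in 15 groups. The wild-type embryos were of the CD1 strain, with 2 libraries each of forestomach, hindstomach and small intestine at embryonic day (E) 12, 14 and 16, and 2 of small intestine at E18. The intestinal samples of E12 and E14 are described in the labels as midgut.

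Libraries labelled Cdx2 knockout came from mice of a mixed B6;129 background with floxed Cdx2 alleles. Cdx2 is the homeodomain factor that specifies intestinal epithelium. One group, of 3 libraries, was small intestine at E16 with Shh-Cre, labelled as deleted at E10, from untreated animals; Shh-Cre acts in the early endoderm. Another, of 2 libraries, was small intestine at E16 with Villin-Cre, labelled as deleted at E13. The last, of 2 libraries, was small intestine at E18 with Villin-Cre, labelled as deleted at E15. For both Villin-Cre embryonic groups, mice received 5 mg of tamoxifen by mouth, and Villin-Cre acts in intestinal epithelium. Adult ileum villi came from the same mixed background: 2 libraries of floxed animals without Cre given sunflower oil, and 2 of floxed Villin-Cre animals given 1 mg of tamoxifen, in both cases on 5 days and taken 3 days after the last injection. Strain and genotype cannot be told apart in the embryonic knockout comparisons. Tamoxifen is listed for the groups labelled as deleted at E13 and E15 and not for their wild type, and cannot be told apart either. In adult ileum, tamoxifen, Villin-Cre and Cdx2 deletion cannot be told apart. The labels do not say which libraries came from separate litters, so p-values measure the spread between these samples, which may be technical.

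Grainyhead-like proteins bind DNA as dimers and activate genes of cell junctions and barrier formation; Grhl2 is a general epithelial factor and Grhl3 is best known from the differentiating epidermis. Elf3 and Ehf belong to the epithelium-specific branch of the ETS family, and Elf3 is needed for normal villus differentiation in the mouse intestine. Klf4 is linked to exit from the cell cycle, goblet cells and squamous differentiation, while Klf5 is typical of proliferating crypt cells. Esrp1 and Esrp2 impose the epithelial pattern of exon use on many transcripts. Ovol1 holds mesenchymal genes down in differentiating epithelia. In the mouse the forestomach becomes a stratified squamous epithelium, and the hindstomach and intestine become glandular.

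Total counts ran from 5970227 in a forestomach library at E16 to 62463167 in an intestinal library at E14. Levels are CPM, counts scaled to a common library size adjusted by the trimmed mean of M values. CPM are not divided by gene length, so levels are compared for 1 gene across groups and not between genes. A gene was called when the edgeR adjusted p was below 0.05 and the log2 fold change at least 1 in either direction. Several groups need a remark before the results. Cdx2 itself was at 14.5 to 27.5 CPM in the 3 libraries labelled as deleted at E10, against 196 and 218 CPM in wild-type small intestine at E16. It was at 213 and 217 CPM in the libraries labelled as deleted at E13, at 371 and 388 CPM in those labelled as deleted at E15 against 199.9 and 206 CPM in wild type at E18, and at 462 and 472 CPM in adult libraries labelled knockout against 242 and 248 CPM in adult wild type. Those 3 groups therefore go against their labels at the level of Cdx2 counts; how the counting treats a deleted exon was not tested, and they are called the libraries labelled knockout throughout. The 5 hindstomach markers summed to 0.160% and 0.166% of counts in the libraries labelled as deleted at E13, against 0.000414% and 0.000541% in wild type at E16. They summed to 0.00207% and 0.00223% in those labelled as deleted at E15, against at most 3.43e-05% in wild type at E18, and to 0.000458% and 0.000947% in adult libraries labelled knockout, against at most 3.70e-05% in adult wild type. The 5 intestine markers were at 0.252% and 0.257% against 0.619% and 0.625% for E15, at 0.411% and 0.416% against 0.730% and 0.761% in adult, and at 0.256% and 0.260% against 0.235% in both wild-type libraries for E13. The 2 hindstomach libraries at E12 held Cdx2 at 116 and 160 CPM, as did the small intestine at 115 and 153 CPM, and 2 of 5 hindstomach markers, Gkn1 and Muc5ac, were at 0 there. Hindstomach markers summed there to 0.0006177% and 0.0004599% of counts, beside 0.0005334% and 0.0005125% in intestine and 0.0164% and 0.0185% in forestomach at E12. Intestine markers were at 0.0226% and 0.0291% in these hindstomach libraries and at 0.0372% and 0.0382% in intestine at E12. Their identity was not tested, a limit on every comparison with hindstomach at E12. In the 2 forestomach libraries at E16, all 14 mesenchyme and muscle markers were present and summed to 2.76% and 3.30% of counts, against 0.0156% and 0.0170% in forestomach at E14. Blood markers summed to 1.54% and 1.99% there, although 6 of the 10 listed, Hba-a1, Hba-a2, Hbb-b1, Hbb-b2, Hbb-bt and Hbb-bs, are at 0 in all 31 libraries of the table. The 24 epithelial junction and surface genes summed to 0.269% and 0.257% there, against 0.699% to 2.38% in the libraries of all other groups.

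The promoters of 4 of the 10 genes were found in the RefSeq table used here, as windows from 250 bases before to 50 bases after the start of the gene (build GRCm38.p6). The windows of Grhl3, Klf4 and Elf3 are printed because these 3 genes had the most calls of the 10 over all comparisons. Capitals mark TTTAT, the core of a Cdx-type site, and CACCC, a Klf-type site, on either strand.
Grhl3, chr4:135573583-135573882, minus strand: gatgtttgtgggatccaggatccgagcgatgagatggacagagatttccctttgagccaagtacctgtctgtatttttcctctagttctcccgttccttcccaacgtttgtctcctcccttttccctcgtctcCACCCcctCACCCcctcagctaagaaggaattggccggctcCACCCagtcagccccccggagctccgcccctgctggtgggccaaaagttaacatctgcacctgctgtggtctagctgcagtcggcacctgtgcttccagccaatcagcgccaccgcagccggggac
Klf4, chr4:55532426-55532725, minus strand: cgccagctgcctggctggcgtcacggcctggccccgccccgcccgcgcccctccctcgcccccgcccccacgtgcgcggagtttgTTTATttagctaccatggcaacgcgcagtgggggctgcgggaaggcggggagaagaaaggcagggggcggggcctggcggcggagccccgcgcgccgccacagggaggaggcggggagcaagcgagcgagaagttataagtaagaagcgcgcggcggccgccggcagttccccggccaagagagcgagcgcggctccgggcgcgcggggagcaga
Elf3, chr1:135258423-135258722, minus strand: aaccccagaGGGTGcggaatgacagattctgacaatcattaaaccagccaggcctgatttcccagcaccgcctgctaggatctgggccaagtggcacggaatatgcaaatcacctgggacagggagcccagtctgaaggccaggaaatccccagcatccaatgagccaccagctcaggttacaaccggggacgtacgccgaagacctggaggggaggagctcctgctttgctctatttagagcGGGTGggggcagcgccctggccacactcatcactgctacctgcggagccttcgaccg

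The Grhl3 window held 3 CACCC matches and the Elf3 window 2, and 57.5% of all 32851 windows of this length held at least 1. The Klf4 window held 1 match to TTTAT, which 40.0% of all windows held, and 4 to the GC box GGGCGG, which 35.7% held. The Grainyhead-type letters AACCNGTT were searched in the same way; 2.09% of all windows held them, and none of these 3 did. AP-1-type letters, held by 7.81% of all windows, were likewise in none of the 3. Matches are descriptions of the letters in these windows, and no binding data were analysed here. TTTAT can overlap the letters of a TATA box, which none of the 3 windows held.

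**Figure D1:**
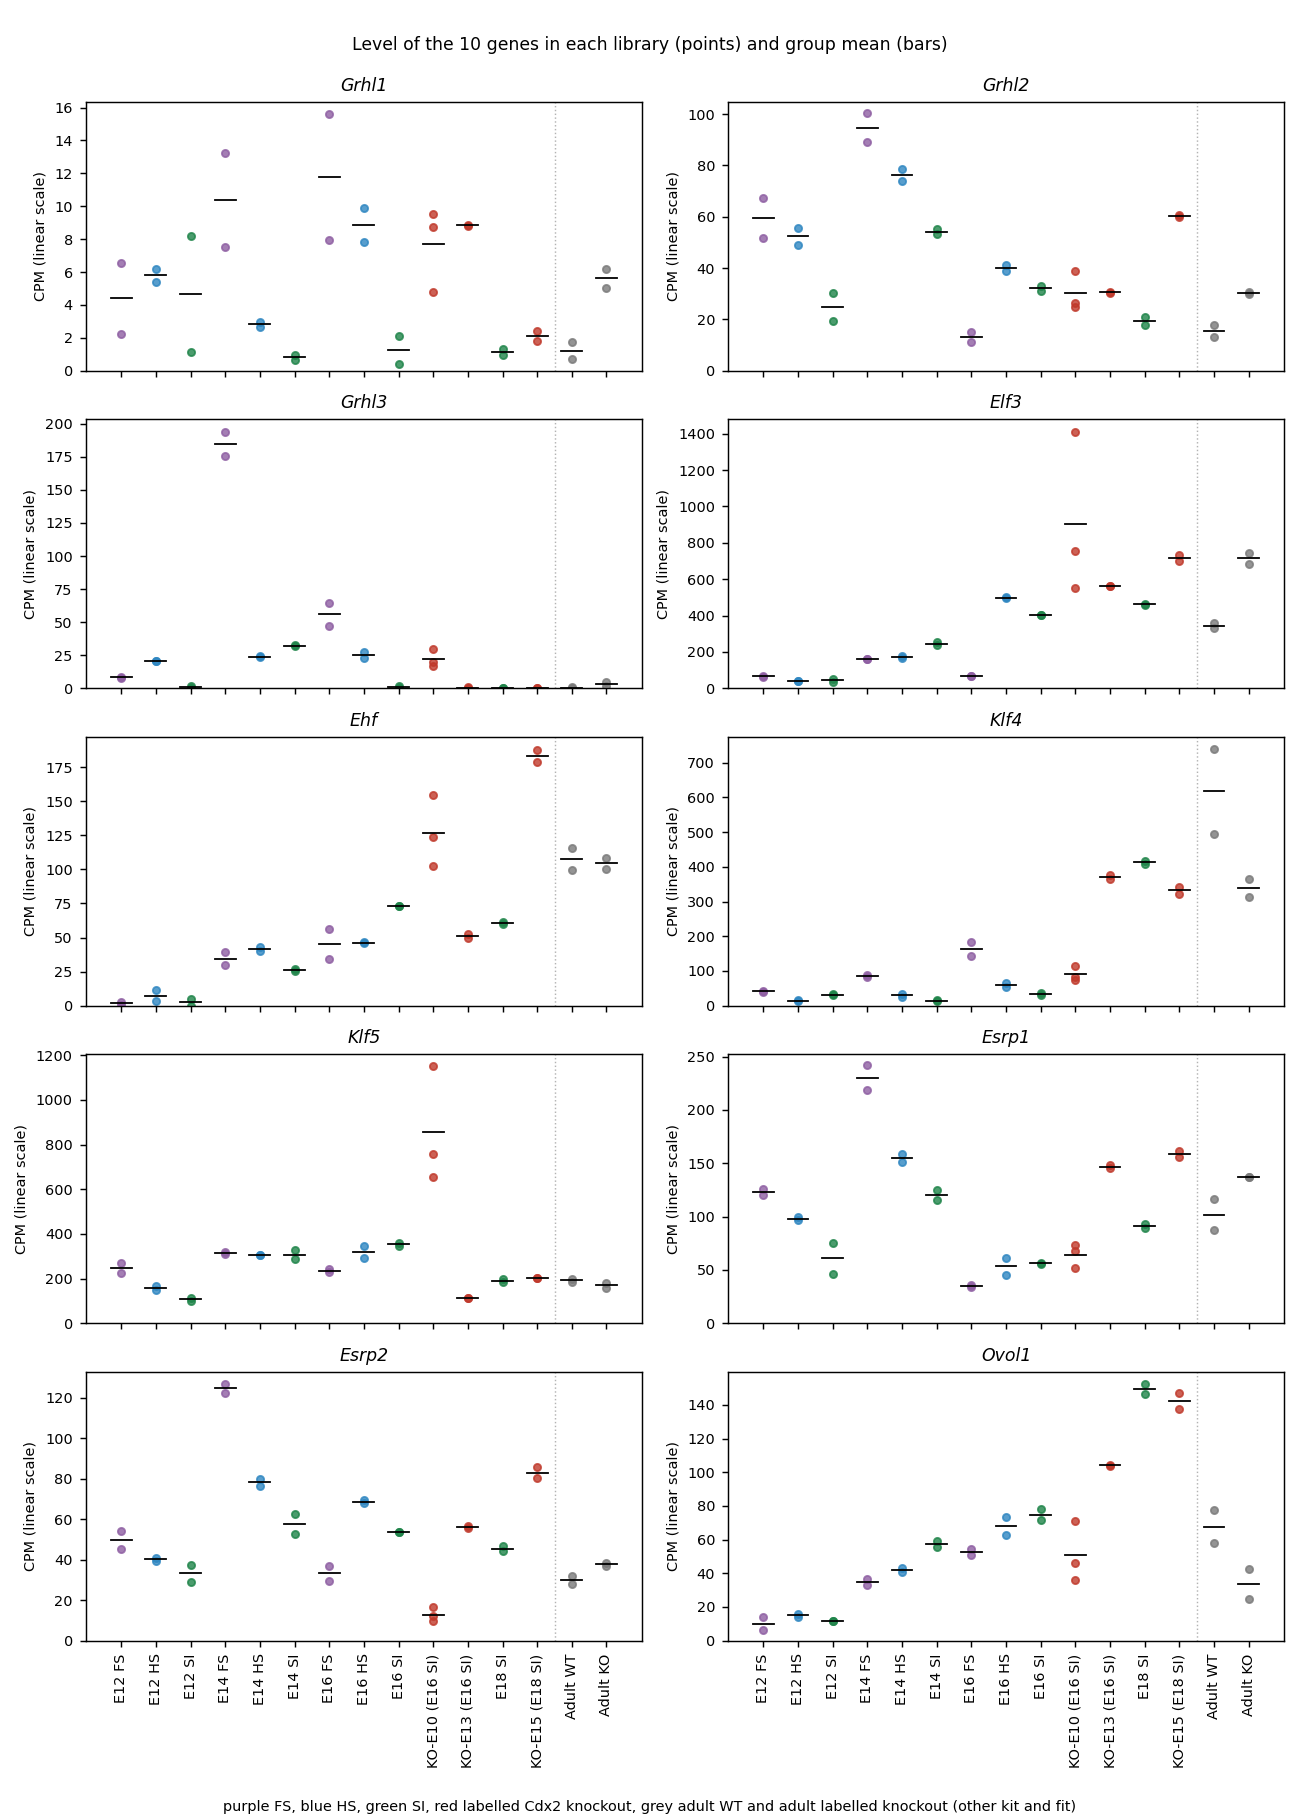
Level of each of the 10 genes in CPM on a linear axis from 0 (vertical) in the 15 groups (horizontal); points are libraries and black bars group means. FS is forestomach, HS hindstomach, SI small intestine, KO a library labelled Cdx2 knockout with its labelled day of deletion. Adult groups, right of the dotted line, were made with another kit and scaled apart. Grhl3 stands highest in forestomach at E14 (176 and 194 CPM), and Klf5 in the libraries labelled as deleted at E10 (656 to 1152 CPM).

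Grhl2 had its highest values at E14 in all 3 wild-type organs. In forestomach it was at 51.9 and 67.5 CPM at E12, 89.0 and 100.3 CPM at E14, and 15.3 and 11.3 CPM at E16. In hindstomach the values were 48.9 and 55.7, then 73.8 and 78.7, then 39.0 and 41.1 CPM. In small intestine they were 19.5 and 30.4, then 53.4 and 55.2, then 33.1 and 31.1 CPM, and 17.8 and 21.1 CPM at E18. E12, E14 and E16 do not overlap in any organ, although 1 of the 2 intestinal libraries of E12 lies close below those of E16. The fall in forestomach from E14 to E16 was the largest change of Grhl2, 7.12-fold (log2 -2.83, SE 0.24, adjusted p = 1.41e-08). The rise in intestine from E12 to E14 was also called (log2 1.12, SE 0.21, adjusted p = 7.56e-04). At E12 Grhl2 was higher in forestomach than in intestine (log2 1.26) and in hindstomach than in intestine (log2 1.07). At E16 the order had changed: forestomach was lower than hindstomach (log2 -1.59, SE 0.23) and than small intestine (log2 -1.27, SE 0.23).

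These comparisons of Grhl2 at E12 rest in part on 1 intestinal library. Without replicate 1 of small intestine at E12 the log2 fold changes were 0.97, 0.78 and 0.84 for forestomach and hindstomach against intestine and for intestine E14 against E12, each below the fold threshold. Without replicate 2 of hindstomach at E12, the second of them was 0.97. In forestomach at E16 the mesenchyme, muscle and blood markers given above moved with the fall of Grhl2. There 19 of the 24 epithelial junction and surface genes were called lower from E14 to E16, beside 16.9% of all genes. The part of these markers and genes in the result was not tested. In sorted samples, fewer cells of a type and less RNA per cell cannot be told apart.

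Grhl3 ran from 194 CPM down to 0. In forestomach it was at 8.07 and 8.57 CPM at E12, 176 and 194 CPM at E14, and 64.8 and 47.1 CPM at E16. The rise between E12 and E14 was 22.2-fold (log2 4.47, SE 0.60, adjusted p = 2.77e-05), and the fall between E14 and E16 was 3.30-fold (log2 -1.72, SE 0.54, adjusted p = 0.0117). Hindstomach stayed between 20.6 and 27.2 CPM at all 3 stages, and neither of its changes was called. In small intestine Grhl3 made a short appearance: 0 and 1.37 CPM at E12 (0 and 43 counts), 31.8 and 32.5 CPM at E14, and 2.01 and 0.546 CPM at E16 (40 and 10 counts). At E18 there were 0 and 2 counts, at or below the floor of 3 counts per library. The intestinal rise from E12 to E14 (log2 5.52, SE 0.68) and the fall from E14 to E16 (log2 -4.63, SE 0.66, adjusted p = 1.69e-05) were both called.

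The size of the early intestinal rise depends on the E12 libraries: it was 4.55, still called, without replicate 1, which has no Grhl3 count. Without replicate 2 only that library at 0 counts is left, a fitted fold change then depends on the prior count, and none is given. With only the 2 groups compared in the fit the call was lost (adjusted p = 0.11). The fall after E14 was -5.87 without replicate 1 and -3.999 without replicate 2 of the intestine at E16. For E16 against E18 the summed counts, 50 against 2, give a ratio of 19.9 with an exact 95% counting interval of 5.23 to 169 that covers counting error only. That step was called in the edgeR fit (log2 -4.20, adjusted p = 0.00991), with -4.84 when replicate 2 of E16 was left out. The call was lost without replicate 1 of E16 (log2 -2.97, adjusted p = 0.15) or replicate 1 of E18 (log2 -3.50, adjusted p = 0.0613). If replicate 2 of E18 is left out, the remaining library has 0 counts, and no fold is given. The forestomach fall from E14 to E16 was lost without replicate 2 of E14 (adjusted p = 0.0612), without replicate 2 of E16 (adjusted p = 0.0943) and under DESeq2 (adjusted p = 0.0568).

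Between organs, Grhl3 separated both stomach groups from intestine at E12 and E16 and forestomach from both others at E14. The hindstomach libraries of E12 carry the limit given above. At E12 it was higher in forestomach than intestine (log2 3.57, SE 0.65) and in hindstomach than intestine (log2 4.88, SE 0.67). Without replicate 1 of the intestine at E12 these were 2.60 and 3.91, both called, and without replicate 2 no fold is given, since the library left has 0 counts. With only the 2 groups compared in the fit both calls were lost (adjusted p = 0.396 and 0.268). At E14 forestomach exceeded hindstomach 7.74-fold (log2 2.95, SE 0.56, adjusted p = 0.00105) and small intestine 5.75-fold (log2 2.52, SE 0.55, adjusted p = 0.00245). At E16 forestomach and hindstomach stood 43.1-fold and 19.3-fold above intestine (log2 5.43, SE 0.67, and log2 4.27, SE 0.65). Without replicate 1 or replicate 2 of the intestine at E16 these log2 values were 6.66 or 4.79 and 5.51 or 3.63, all called.

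Grhl1 was at 0.382 to 15.6 CPM and varied between replicates, with a median coefficient of variation of 25.9% over the 13 embryonic groups. Forestomach had 6.55 and 2.25 CPM at E12, 13.2 and 7.52 CPM at E14, and 15.6 and 7.96 CPM at E16. Hindstomach had 6.18 and 5.42, then 2.96 and 2.67, then 7.85 and 9.87 CPM. Small intestine had 8.18 and 1.12, then 0.680 and 0.986, then 2.11 and 0.382 CPM, and 1.31 and 0.933 CPM at E18. From E14 on, every stomach library lies above every intestinal library of its stage. Forestomach against small intestine was called at E14 (log2 3.65, SE 0.82) and at E16 (log2 3.23, SE 0.82), and hindstomach against small intestine at E16 (log2 2.82, SE 0.80). The fall in intestine between E12 and E14 (log2 -2.49, SE 0.79, adjusted p = 0.0226) rests on replicate 1 of E12; without it the value was -0.45 (adjusted p = 0.709), and without replicate 1 or 2 of E14 the adjusted p was 0.148 or 0.0919. Without replicate 2 of intestine at E16 the difference of hindstomach was 2.07 (adjusted p = 0.103) and that of forestomach 2.47 (adjusted p = 0.0441), and without replicate 1 they were 4.52 and 4.92. Without replicate 1 of intestine at E14 the forestomach difference at that stage had an adjusted p of 0.0642.

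Elf3 had higher values at each later stage in the glandular organs, while forestomach at E16 was back near its values of E12. Hindstomach had 40.6 and 37.2 CPM at E12, 176 and 164 CPM at E14, and 502 and 496 CPM at E16. Small intestine had 35.8 and 51.8, then 254 and 237, then 401 and 404 CPM, and 461 and 462 CPM at E18. Forestomach had 63.5 and 68.4, then 162 and 160.3, then 68.5 and 70.0 CPM. No stage overlaps the next in hindstomach or intestine. The rise from E12 to E14 was called in all 3 organs: log2 1.29 in forestomach (SE 0.26), 2.13 in hindstomach (SE 0.27) and 2.48 in intestine (SE 0.27). From E14 to E16 hindstomach rose further (log2 1.55, SE 0.26, adjusted p = 1.79e-04) and forestomach fell (log2 -1.22, SE 0.27, adjusted p = 8.90e-04). That fall was below the fold threshold with relative log expression scaling and with DESeq2 (log2 -0.92 in both). At E16 forestomach was 7.20-fold below hindstomach (log2 -2.85, SE 0.28) and 5.81-fold below small intestine (log2 -2.54, SE 0.28). Mesenchyme and muscle markers were at 2.76% and 3.30% of counts in forestomach at E16, and their part in these Elf3 values was not tested.

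Ehf was low at E12 and rose in all 3 organs by E14. At E12 its counts were 24 and 119 in forestomach (0.846 and 3.08 CPM), 115 and 374 in hindstomach (3.54 and 11.2 CPM), and 0 and 158 in small intestine (0 and 5.03 CPM). At E14 the organs were at 29.8 and 39.1 CPM, 43.3 and 40.2 CPM, and 25.2 and 27.3 CPM. At E16 they were at 34.6 and 56.2, 45.7 and 46.6, and 72.8 and 73.2 CPM, and intestine was at 59.7 and 61.6 CPM at E18. Every library of E14 lies above every library of E12. The rise was called in forestomach (log2 4.09, SE 0.80), hindstomach (log2 2.501, SE 0.72) and intestine (log2 3.37, SE 0.77). Its size is loosely fixed: the intestinal rise was 2.38 without replicate 1 of E12 and lost its call with only the 2 groups compared (adjusted p = 0.317). When replicate 2 of E12 is left out, the remaining intestinal library has 0 counts, and no fold is given. The forestomach rise was 3.49 without replicate 1 and 5.34 without replicate 2. The hindstomach rise was 3.56 without replicate 2 of E12, and without replicate 1 it was 1.90 with an adjusted p of 0.13. No difference of Ehf between organs was called at E12, E14 or E16.

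**Figure D2:**
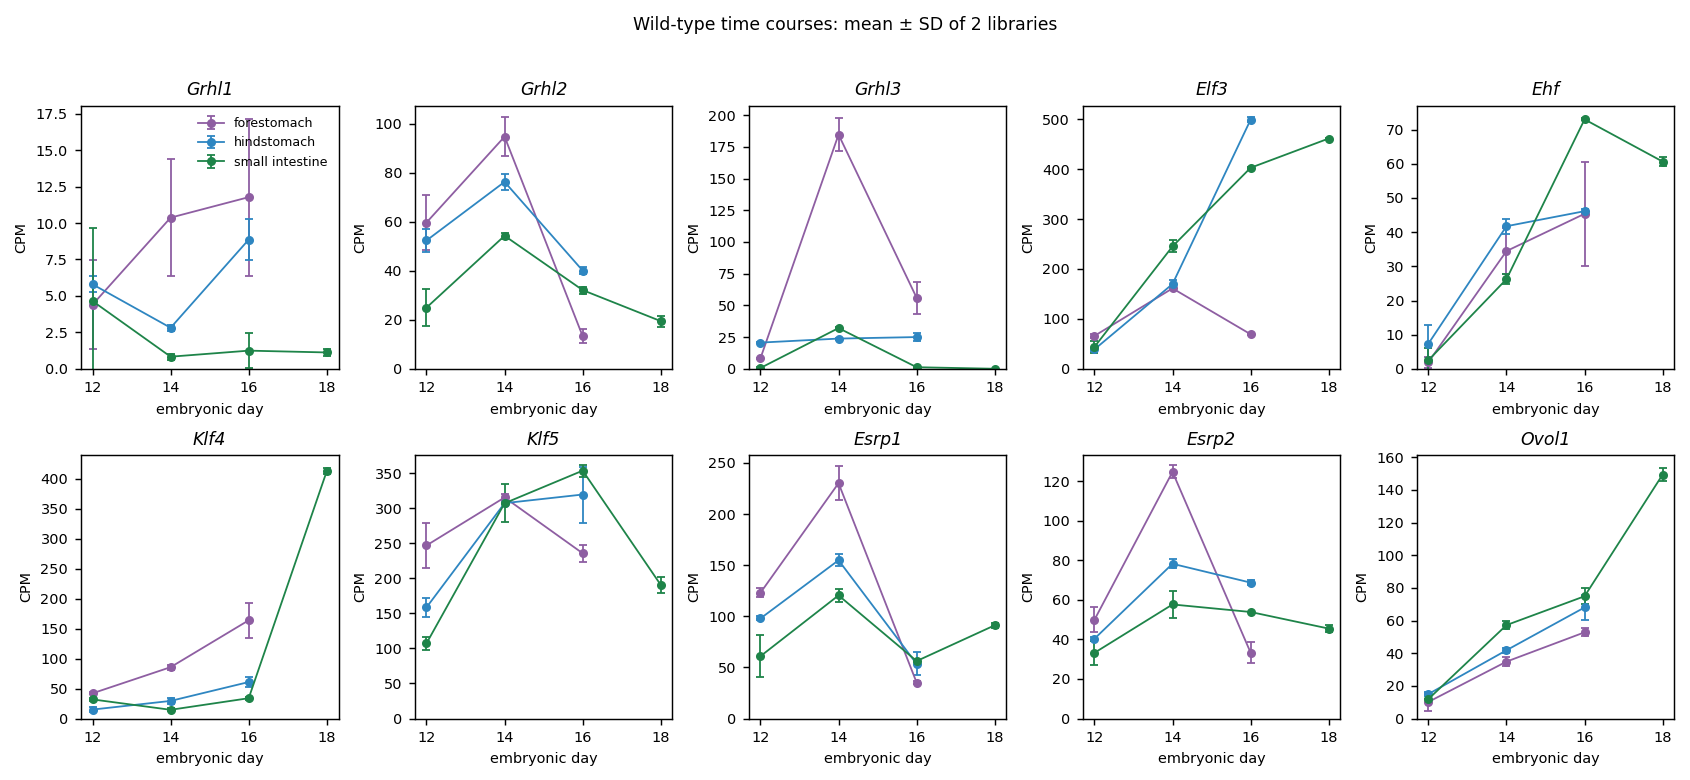
Mean CPM ± SD of 2 libraries (vertical, linear from 0) against embryonic day (horizontal) for the 10 genes in wild-type forestomach, hindstomach and small intestine; error bars that would pass below 0 end at the axis. Grhl2, Grhl3, Esrp1 and Esrp2 are highest in forestomach at E14, while Elf3 reaches 499 CPM in hindstomach at E16 and Klf4 413 CPM in small intestine at E18.

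Klf4 alone among the 10 was called between forestomach and hindstomach libraries at E12, E14 and E16, with the limit on E12 hindstomach given above. Forestomach had 43.4 and 40.8 CPM at E12, 82.9 and 88.5 CPM at E14, and 185 and 143 CPM at E16. Hindstomach had 17.5 and 12.4, then 25.8 and 33.0, then 55.3 and 66.6 CPM. The difference was log2 1.49 at E12 (SE 0.20), 1.54 at E14 (SE 0.20) and 1.43 at E16 (SE 0.20), and the groups do not overlap at any stage. Small intestine first lost Klf4, from 34.0 and 29.9 CPM at E12 to 16.2 and 12.9 CPM at E14 (log2 -1.12, SE 0.20). It then rose to 35.6 and 32.2 CPM at E16 (log2 1.21, SE 0.20) and to 409 and 417 CPM at E18. That last step, 12.2-fold, was the largest change of Klf4 in wild type (log2 3.61, SE 0.21, adjusted p = 9.41e-11). The E16 intestine had been trypsinized and Epcam-sorted, while the E18 villi were released with EDTA, so stage and isolation cannot be told apart for this step of Klf4 or of Grhl3. Mesenchyme and muscle markers summed to 0.164% and 0.182% of counts at E16 and to 0.000368% and 0.000481% at E18, and their part in these steps was not tested. Forestomach against intestine was log2 2.55 at E14 and 2.27 at E16 (SE 0.21 for both). Hindstomach was lower than intestine at E12 (log2 -1.10, SE 0.20) and higher at E14 (log2 1.00, SE 0.20).

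Klf4 also rose within forestomach from E12 to E14 (log2 1.03) and within hindstomach from E14 to E16 (log2 1.05). Several of these values lie at the fold threshold. Without replicate 2 of hindstomach at E12 the difference from intestine was -0.87. Without replicate 2 of hindstomach or of intestine at E14, that of E14 was 0.82 and 0.85, and it was 1.00 and 0.99 (neither called) with no filter on low counts and without the groups labelled as deleted at E13 and E15. The forestomach rise was 0.98 without replicate 2 of either stage, and the hindstomach rise 0.88 without replicate 1 of E14 and 0.91 without replicate 2 of E16. The intestinal fall was -0.97 without replicate 2 of E14. Klf4 belongs to the genes that respond quickly to stress. Genes of the dissociation response moved with its rise from E14 to E16 in hindstomach and intestine. In hindstomach 16 of 16 such genes, among them Fos, Egr1 and Atf3, were called higher (16.5% of all genes). In intestine 12 of 16 were (13.7% of all genes). All 16 were also called higher in forestomach (20.8% of all genes), where Klf4 changed by log2 0.94 at that step, below the fold threshold. They summed to 2.01% and 2.75% of counts in forestomach at E16, 2.29% and 2.34% in hindstomach and 1.14% and 1.15% in intestine, against 0.254% to 0.375% at E14. At the forestomach rise from E12 to E14 they were at 0.266% and 0.269%, then at 0.254% and 0.259%. From E16 to E18 in intestine, 4 of the 16 were called higher and 2 lower, beside 20.1% and 22.1% of all genes. Their sum at E18 was 0.924% and 0.940%. Their part in the Klf4 values was not tested.

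Klf5 had few calls in wild type. It was at 269.7 and 224 CPM in forestomach, 149 and 168 CPM in hindstomach, and 113 and 101 CPM in small intestine at E12. At E14 intestine was at 326 and 288 CPM, with the 4 stomach libraries between these values, and at E16 they lay at 244 and 227, 348 and 291, and 359 and 347 CPM. Intestine was at 183 and 199 CPM at E18. The intestinal rise from E12 to E14 was called (log2 1.52, SE 0.18, adjusted p = 9.52e-06), as was forestomach against intestine at E12 (log2 1.20, SE 0.18).

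Like Grhl2, Esrp1 and Esrp2 were highest in forestomach at E14 and fell there by E16. Esrp1 was at 120.0 and 126 CPM at E12, 219 and 242 CPM at E14, and 36.0 and 34.3 CPM at E16, a 6.55-fold fall over the last step (log2 -2.71, SE 0.20, adjusted p = 2.03e-09). Esrp2 was at 54.3 and 45.4, then 127 and 122, then 37.0 and 29.5 CPM, a rise of log2 1.32 (SE 0.18) and a fall of log2 -1.90 (SE 0.19, adjusted p = 1.20e-07). The mesenchyme, muscle and blood markers of forestomach at E16 moved with both falls, and their part was not tested. In hindstomach Esrp1 fell from 151 and 159 CPM at E14 to 45.4 and 61.4 CPM at E16 (log2 -1.54, SE 0.18). Markers of other cell types moved with this step, and so with those of Elf3 and Klf4 in hindstomach. From E14 to E16, mesenchyme and muscle markers went there from 0.00766% and 0.00849% of counts to 0.912% and 0.950%, blood markers from at most 0.00163% to 0.125% and 0.177%, immune markers from at most 0.000719% to 0.0827% and 0.103%, and neural markers from at most 0.0023% to 0.0560% and 0.0576%. In intestine the mesenchyme and muscle markers went from 0.0343% and 0.0422% to 0.164% and 0.182%. Their part in the results was not tested. Esrp2 there was at 76.6 and 79.9 CPM at E14 and 67.8 and 69.6 CPM at E16, a step that was not called. In small intestine Esrp1 went from 46.6 and 75.3 CPM at E12 to 116 and 125 CPM at E14, 56.7 and 55.7 CPM at E16, and 89.6 and 92.8 CPM at E18. Only its fall from E14 to E16 was called (log2 -1.10, SE 0.18), and not with relative log expression scaling or DESeq2 (log2 -0.94 in both). Esrp2 in intestine was at 28.9 and 37.5, 52.8 and 62.5, 53.9 and 53.8, and 44.2 and 46.7 CPM over the 4 stages, with no step called.

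Between organs, Esrp1 was called in forestomach against intestine at E12 (log2 1.01, SE 0.18). Without replicate 1 of the intestine or replicate 2 of the forestomach it was 0.71 or 0.98. Esrp2 was called in forestomach against intestine at E14 (log2 1.11, SE 0.18), with 0.99 when replicate 1 of that intestine was left out. It was also called lower in forestomach than in hindstomach at E16 (log2 -1.04, SE 0.19). That call did not hold with relative log expression scaling (-0.85), with DESeq2 (-0.85), without the groups labelled as deleted at E13 and E15 (-0.97), with only those 2 groups (-0.95), or without replicate 2 of forestomach (-0.89). An antisense gene overlaps Esrp2 in the RefSeq table. The strand setting of the counting is not given in the sources used here, so reads of the pair cannot be told apart.

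Ovol1 was higher at each later stage in every organ. Forestomach had 6.45 and 13.9 CPM at E12, 36.8 and 33.0 CPM at E14, and 54.5 and 51.1 CPM at E16. Hindstomach had 14.1 and 15.9, 43.0 and 40.7, and 62.7 and 73.4 CPM. Small intestine had 11.9 in both libraries, then 55.5 and 59.0, then 71.4 and 78.4 CPM, and 146 and 152 CPM at E18. No stage overlaps the next. The step from E12 to E14 was called in forestomach (log2 1.77, SE 0.27), hindstomach (log2 1.48, SE 0.27) and intestine (log2 2.26, SE 0.27). Without replicate 2 of forestomach at E12 the first was 2.43. Later steps did not reach the threshold, and no difference between organs was called. Without that same library, forestomach at E12 was called lower than hindstomach (log2 -1.21, adjusted p = 0.0108), against -0.55 with all libraries.

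**Figure D3:**
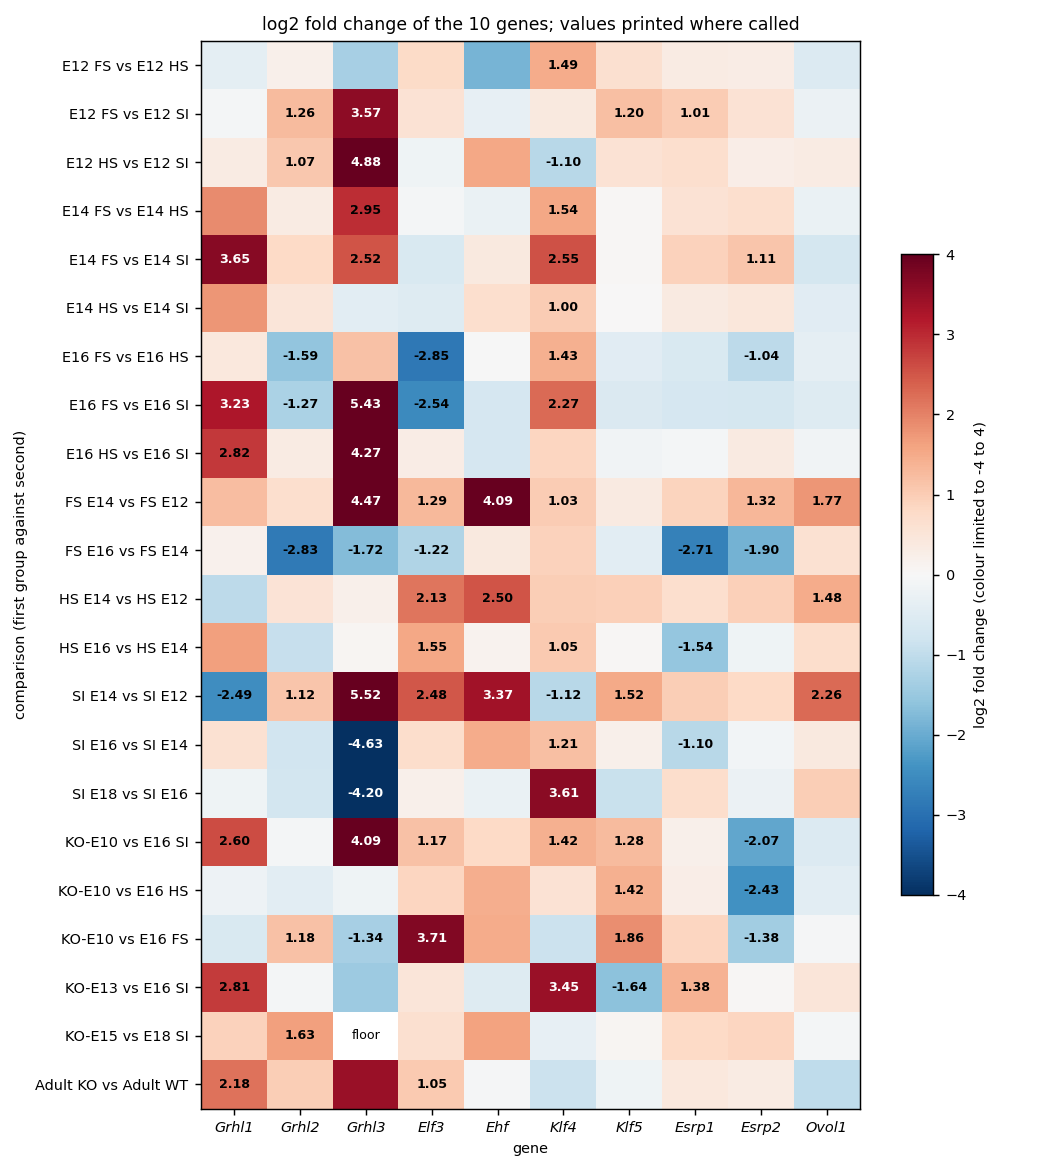
log2 fold change of the 10 genes (columns) in the 22 comparisons (rows, first group against second); colour runs from blue (lower) to red (higher) and is limited to -4 to 4, and values are printed where the gene was called. Grhl3 in the libraries labelled as deleted at E15 against E18 is marked floor because both groups hold at most 2 counts per library. FS, HS and SI are forestomach, hindstomach and small intestine. The column of Klf4 has the most printed values and those of Ehf and Ovol1 have 3 each, all for E14 against E12.

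Counted over the 10 genes, the step from E12 to E14 was mostly upward. In forestomach 6 of 10 were called, all higher (Grhl3, Elf3, Ehf, Klf4, Esrp2, Ovol1), where 12.7% of the 17239 genes tested were called (7.58% higher). In hindstomach 3 of 10 were called, all higher (Elf3, Ehf, Ovol1), against 17.2% of all genes (10.8% higher). Cdx2 went there from 116 and 160 CPM at E12 to 6.20 and 12.7 CPM at E14. Hindstomach markers went from at most 0.0006177% of counts to 0.0585% and 0.0558%. Whether the step joins like tissue was not tested. In intestine 8 of 10 were called, 6 higher and Grhl1 and Klf4 lower, against 16.2% (11.3% higher and 4.89% lower). The median log2 fold change of the 10 was 1.26, 0.96 and 1.32 in the 3 organs, beside -0.03, 0 and 0.07 over all genes tested. Elf3, Ehf and Ovol1 were called higher in all 3 organs at this step. When only the 4 libraries of the intestinal comparison were fitted, the calls of Grhl1, Grhl2, Grhl3, Ehf and Klf4 in intestine were lost (adjusted p from 0.0749 to 0.317).

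A difference between organs was not tested for the step from E14 to E16. In forestomach 5 of 10 were called, all lower (Grhl2, Grhl3, Elf3, Esrp1, Esrp2), against 37.7% of all genes (16.9% lower). The markers of other cell types in forestomach at E16, given above, moved with this step, and their part was not tested. In hindstomach 3 of 10 were called, Elf3 and Klf4 higher and Esrp1 lower, against 22.0% (16.5% higher and 5.50% lower). In intestine 3 of 10 were called, Klf4 higher and Grhl3 and Esrp1 lower, against 25.6% (13.7% higher and 11.9% lower). From E16 to E18 in intestine 2 of 10 were called, Klf4 higher and Grhl3 lower, against 42.1% (20.1% higher and 22.1% lower). Leaving out replicate 1 or 2 of the intestine at E16 made the last count 1 or 3.

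Between organs at E12, 1 of 10 was called in forestomach against hindstomach (Klf4, higher), where 7.11% of all genes were called (2.83% higher). Forestomach against intestine gave 4 of 10, all higher (Grhl2, Grhl3, Klf5, Esrp1), against 10.1% (5.37% higher). Hindstomach against intestine gave 3 of 10, Grhl2 and Grhl3 higher and Klf4 lower, against 9.28% (5.60% higher and 3.67% lower), with the high Cdx2 of those hindstomach libraries noted above. When replicate 1 or replicate 2 of the intestine at E12 was left out, the middle count was 2 or 5, and when replicate 2 of hindstomach or of intestine was left out the last was 1 or 5. The first was 2 without replicate 2 of forestomach. With only the 4 libraries of each comparison fitted, Klf5 alone kept its call against intestine in forestomach (adjusted p of 0.126 for Grhl2, 0.396 for Grhl3 and 0.142 for Esrp1), and in hindstomach no gene kept an edgeR call (adjusted p of 0.188 for Grhl2, 0.268 for Grhl3 and 0.229 for Klf4). At E14 the counts were 2 of 10 for forestomach against hindstomach (Grhl3 and Klf4, higher) against 8.46% (2.85% higher), 4 of 10 for forestomach against intestine (Grhl1, Grhl3, Klf4, Esrp2, higher) against 11.9% (4.66% higher), and 1 of 10 for hindstomach against intestine (Klf4, higher) against 6.83% (3.49% higher). Without replicate 1 of intestine the second was 2, and without replicate 2 of either group the last was 0. At E16 they were 4 of 10 for forestomach against hindstomach, Klf4 higher and Grhl2, Elf3 and Esrp2 lower, against 20.1% (6.27% higher and 13.8% lower). Forestomach against intestine gave 5 of 10, Grhl1, Grhl3 and Klf4 higher and Grhl2 and Elf3 lower, against 35.0% (18.6% higher and 16.4% lower). Hindstomach against intestine gave 2 of 10, Grhl1 and Grhl3 higher, against 25.7% (17.5% higher), and 1 without replicate 2 of intestine.

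The difference between organs in the change from E12 to E16 was tested as an interaction. Its hindstomach values at E12 carry the limit on those libraries given above. Forestomach against hindstomach gave 5 of 10 genes, against 20.2% of all genes (7.38% higher and 12.9% lower), and forestomach against intestine 7 of 10, against 30.8% (14.8% higher and 16.1% lower). The change of Elf3 was lower in forestomach by log2 -3.61 (SE 0.38) than in hindstomach and by -3.13 (SE 0.38) than in intestine. The change of Grhl2 was likewise lower in forestomach, by log2 -1.78 (SE 0.31) and -2.53 (SE 0.32). Hindstomach against intestine gave 1 of 10, Klf4 (log2 1.94, SE 0.28), against 20.3% (12.5% higher), and 6 without replicate 2 of intestine at E12, where Grhl3 and Ehf have no count left, or 2 without replicate 1 of intestine at E16. The first count, for forestomach against hindstomach, was 3 without replicate 1 of forestomach at E12.

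In the libraries labelled Cdx2 knockout from E10, against wild-type small intestine at E16, 6 of 10 were called, Grhl1, Grhl3, Elf3, Klf4 and Klf5 higher and Esrp2 lower, where 51.5% of all 17239 genes were called (23.9% higher and 27.6% lower). Mesenchyme and muscle markers were at 0.164% and 0.182% of counts in that wild-type intestine, at 0.0133% to 0.0198% in these 3 libraries and at 0.00461% and 0.00475% in those labelled as deleted at E13. Blood markers were at 0.0193% and 0.0197% in the wild type, and at most 0.000655% and 0.000282% in these 2 groups labelled knockout. The part of either in the comparisons with wild-type intestine was not tested. Grhl3 was at 19.7, 29.5 and 16.9 CPM against 2.01 and 0.546 CPM, a 17.02-fold difference (log2 4.09, SE 0.63, adjusted p = 1.26e-05). That level overlaps hindstomach at E16 (27.2 and 22.9 CPM) and lies below forestomach (64.8 and 47.1 CPM). Grhl1 was at 4.81, 8.72 and 9.51 CPM against 2.11 and 0.382 CPM (log2 2.60, SE 0.76). Without replicate 1 or replicate 2 of the wild-type intestine these values were 5.32 or 3.45 for Grhl3, both called, and 4.30 or 1.85 for Grhl1, the latter with an adjusted p of 0.0844.

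Klf5 reached its highest level of the series in these 3 libraries, 1152, 758 and 656 CPM against 359 and 347 CPM in wild-type intestine (log2 1.28, SE 0.17, adjusted p = 2.30e-06). It was also higher than in hindstomach (log2 1.42, SE 0.17) and forestomach (log2 1.86, SE 0.18) of that age. Elf3 was at 1410.9, 754 and 553 CPM against 401 and 404 CPM (log2 1.17, SE 0.25). Replicate 1 is far above the other two, and without it the difference was 0.70. Klf4 was at 82.8, 115 and 73.7 CPM against 35.6 and 32.2 CPM (log2 1.42, SE 0.19). The dissociation response genes went the other way here, with 10 of 16 called lower and 2 higher than in intestine (27.6% and 23.9% of all genes). Their sums were 0.175% to 0.565%.

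Esrp2 and Esrp1 parted in these libraries. Esrp2 was at 12.02, 9.90 and 16.8 CPM, below every other library of the series, against 53.9 and 53.8 CPM in small intestine (log2 -2.07, SE 0.17, adjusted p = 2.46e-09). It was also lower than in hindstomach (log2 -2.43, SE 0.17) and forestomach (log2 -1.38, SE 0.18). Esrp1 was at 52.2, 73.4 and 67.3 CPM against 56.7 and 55.7 CPM and was not called in any of the 3 comparisons. Of 7 genes with exons known to depend on Esrp proteins, 4 were called lower than in intestine (Arhgef11, Ctnnd1, Mbnl1, Slc37a2) and Enah higher, where 27.6% of all genes were lower and 23.9% higher, but gene counts do not show exon use. Ovol1 was at 70.9, 45.9 and 35.9 CPM against 71.4 and 78.4 CPM and was not called, whereas its relative Ovol2 was at 77.6 to 111 CPM against 2.26 and 2.67 CPM (log2 5.33, SE 0.55). Grhl2, at 24.9, 39.0 and 26.4 CPM, overlapped wild-type intestine, and Ehf, at 124, 154 and 102 CPM against 72.8 and 73.2 CPM, did not overlap it but was not called.

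**Figure D4:**
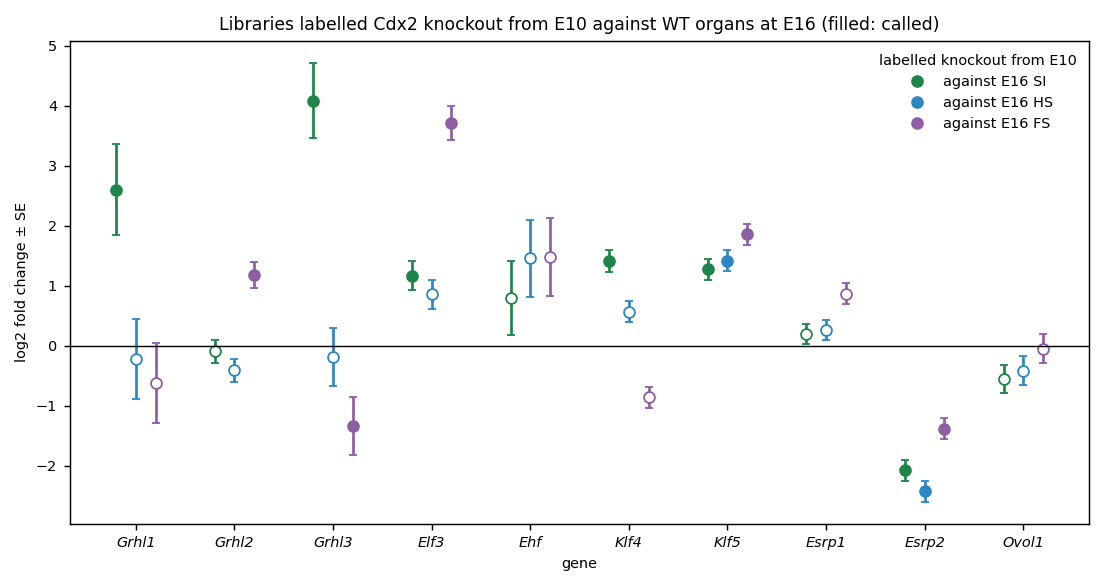
log2 fold change ± SE (vertical) of the 10 genes (horizontal) in the 3 libraries labelled Cdx2 knockout from E10 against wild-type small intestine, hindstomach and forestomach at E16; filled points were called. The 3 comparisons share the knockout libraries. Esrp2 lies below 0 in all 3 and Klf5 above, while Grhl3 is at 4.09 against intestine and -1.34 against forestomach.

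Against hindstomach at E16, 2 of 10 genes were called in the libraries labelled as deleted at E10, Klf5 higher and Esrp2 lower, against 56.3% of all genes (21.6% higher and 34.6% lower). With relative log expression scaling, with the replicate number as a block, and without replicate 3 of the knockout, the count was 4. Against forestomach 5 of 10 were called, Elf3 (log2 3.71, SE 0.28), Klf5 and Grhl2 (log2 1.18, SE 0.22) higher and Grhl3 (log2 -1.34, SE 0.48) and Esrp2 lower, against 53.3% (24.7% higher and 28.7% lower). Mesenchyme and muscle markers were at 2.76% and 3.30% of counts in that forestomach and at 0.912% and 0.950% in hindstomach. They were at 0.0133% to 0.0198% in the libraries labelled as deleted at E10. Blood markers were at 1.54% and 1.99% in forestomach, 0.125% and 0.177% in hindstomach and at most 0.000655% in these libraries. Their part in either comparison was not tested. Grhl2 was at 0.98 without replicate 2 of forestomach. Grhl3 had an adjusted p of 0.0636 with the replicate block, 0.137 without replicate 1 of forestomach, and 0.0515 and 0.0563 without replicates 1 and 3 of the knockout. In these libraries the milk-clotting protease gene Cym took 8.26% to 11.7% of counts and the scaling factors were 0.542 to 0.651, so that shares of counts and scaled values differ. Against hindstomach, the median over all genes was -0.49 on the log2 scale, beside 0.04 for the 10.

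Against small intestine at E16, the libraries labelled as deleted at E13 gave 4 of 10 genes, Grhl1, Klf4 and Esrp1 higher and Klf5 lower, where 39.5% of all genes were called (18.7% higher and 20.8% lower). Klf4 was at 364 and 378 CPM against 35.6 and 32.2 CPM, 10.9-fold higher (log2 3.45, SE 0.21, adjusted p = 1.62e-10). These values lie near those of intestine at E18 (409 and 417 CPM), and the dissociation response genes were at 0.0726% and 0.0760% of counts, the lowest sums of the series, with 15 of 16 called lower. Klf5 was at 113 and 114 CPM against 359 and 347 CPM (log2 -1.64, SE 0.19). Esrp1 was at 148 and 145 CPM against 56.7 and 55.7 CPM (log2 1.38, SE 0.18). Grhl1 was at 8.89 and 8.79 CPM (log2 2.81, SE 0.80), with 4.51 without replicate 1 of the wild-type intestine and, without replicate 2, 2.06 with an adjusted p of 0.0767.

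Against small intestine at E18, the libraries labelled as deleted at E15 gave 1 of 10, Grhl2, where 17.5% of all genes were called (7.79% higher). Grhl2 was at 60.6 and 59.9 CPM against 17.8 and 21.1 CPM (log2 1.63, SE 0.22, adjusted p = 1.47e-05). Immune markers were at 0.000971% and 0.00114% of counts in these libraries against 0.0201% and 0.0203% in wild type, and dissociation response genes at 0.634% and 0.666% against 0.924% and 0.940%; their part in the result was not tested. Ehf, at 179 and 188 CPM, was higher in both libraries than in either of wild type (59.7 and 61.6 CPM) without being called, as were Esrp1 (156 and 162 against 89.6 and 92.8 CPM) and Esrp2 (85.6 and 80.5 against 44.2 and 46.7 CPM). The same held for Elf3 (731 and 701 against 461 and 462 CPM), Grhl1 (1.81 and 2.41 against 1.31 and 0.933 CPM) and, by a small margin, Klf5 (203 and 200.3 against 183 and 199 CPM). Klf4, at 342 and 323 CPM against 409 and 417 CPM, was lower in both without being called, and Ovol1 overlapped wild type. Grhl3 had 1 count in each library against 0 and 2, so that both groups are at the floor and no fold is given.

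In adult ileum villi, 2 of 10 genes were called in the libraries labelled knockout, both higher, where 20.4% of the 12444 genes tested were called (8.41% higher). Grhl1 was at 5.05 and 6.21 CPM against 0.688 and 1.76 CPM (log2 2.18, SE 0.49, adjusted p = 0.0285), and Elf3 at 746 and 685 CPM against 357 and 333 CPM (log2 1.05, SE 0.13, adjusted p = 0.00739). Grhl1 was at log2 2.36 without replicate 1 and 2.04 without replicate 2 of the libraries labelled knockout, and lost its call in each case. It was 3.01 without replicate 2 of wild type, and Elf3 was then 1.00 and below the fold threshold. Grhl3 had 45 and 68 counts against 0 and 10 (1.86 and 4.85 against 0 and 0.567 CPM), and Ovol1 was at 24.9 and 42.3 CPM against 77.6 and 58.0 CPM. Neither was called in the edgeR fit, and both were with DESeq2 (adjusted p = 0.0104 and 0.0134). Klf4 was at 312 and 366 CPM against 496 and 739 CPM, groups that do not overlap. Grhl2 was at 30.6 and 30.1 CPM against 13.3 and 17.7 CPM, Ehf at 100.2 and 109 against 99.3 and 115 CPM, and Klf5 at 182 and 159 against 199.6 and 184 CPM. Esrp1 was at 137 and 138 CPM against 87.4 and 116 CPM, and Esrp2 at 38.3 and 37.0 against 27.9 and 31.7 CPM.

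Related genes outside the 10 gave a mixed picture. Of 15 other Klf genes, 9 were called higher and 0 lower in forestomach from E14 to E16 (20.8% of all genes higher and 16.9% lower), beside 16 of 16 dissociation genes, and 7 higher and 0 lower in hindstomach (16.5% and 5.50% of all genes). Klf2 was among the 9 (log2 7.94, SE 0.70). In the libraries labelled as deleted at E10, 3 of the 15 were higher than in intestine and 6 lower, where 23.9% and 27.6% of all genes were. Of 5 other ETS genes, Elf5 was called higher from E12 to E14 in forestomach, hindstomach and intestine (log2 6.08, 3.41 and 2.88), and Spdef lower in forestomach (log2 -1.82) and higher in hindstomach (log2 3.10). Among 6 transcription factors of the epithelial-mesenchymal transition, 4 were called higher in forestomach and 5 in hindstomach from E14 to E16, together with the mesenchyme markers, which were at 0.912% and 0.950% of counts in hindstomach at E16. Of 24 epithelial junction and surface genes, 8 were called higher and 0 lower in intestine from E12 to E14, where 11.3% of all genes were higher and 4.89% lower. At E16, 20 of the 24 were called lower in forestomach than in each of the other organs, where 13.8% of all genes were lower than in hindstomach and 16.4% than in intestine.

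The 10 genes do not share a single pattern. Over the 13 embryonic group means of log2 CPM, Pearson's r between them ran from -0.48 (Grhl3 and Klf4) to 0.88 (Ehf and Ovol1), and 10 of 45 pairs were above 0.5. The closest pairs were Ehf with Ovol1 (r = 0.88), Elf3 with Ovol1 (0.84), Elf3 with Ehf (0.82) and Grhl2 with Esrp1 (0.79). The groups share a fit, a scaling and a library kit, and in part a stage and an isolation method, so these values describe likeness only. The most similar of 10677 well-counted genes were Fosl2 for Ovol1 (r = 0.97), Klhl36 for Grhl3 (0.95), Rnpep for Elf3 (0.94), Klhl9 for Grhl2 (0.94), Gapvd1 for Esrp2 (0.94), Gm14325 for Esrp1 (0.93), Dstn for Klf4 (0.92) and Aifm2 for Ehf (0.91). Klf5 (Ankra2, 0.85) and Grhl1 (Zdhhc1, 0.83) had no neighbour as close.

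**Figure D5:**
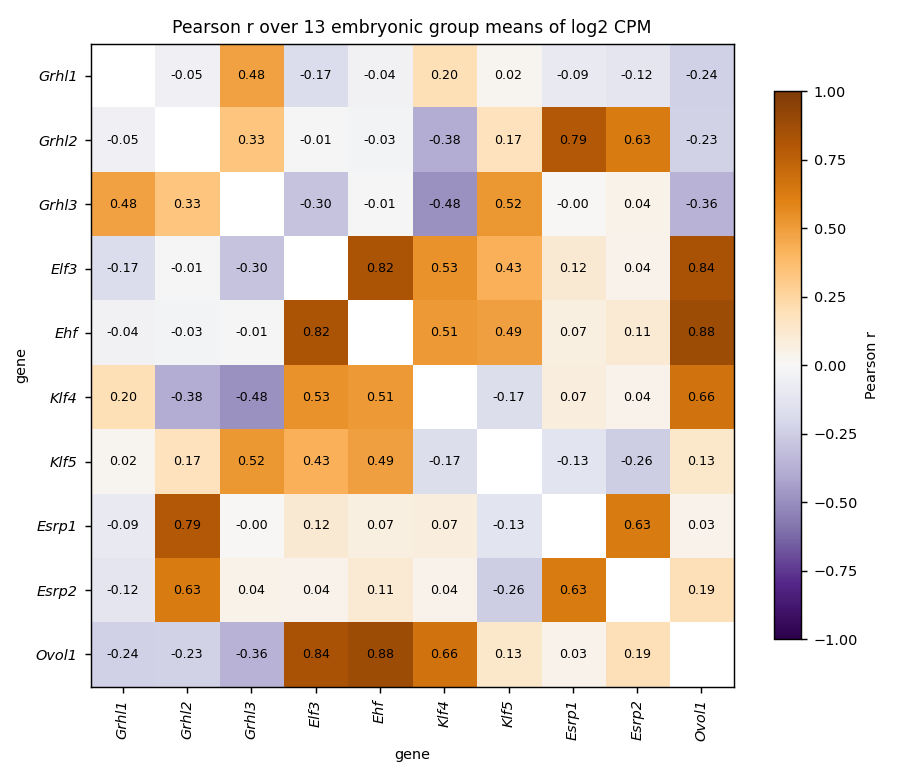
Pearson's r between the 10 genes (rows and columns) over the means of 13 embryonic groups in log2 CPM; orange is positive and purple negative. Elf3, Ehf and Ovol1 form 1 block (0.82 to 0.88) and Grhl2, Esrp1 and Esrp2 another (0.63 to 0.79). Grhl1 has its highest value with Grhl3 (0.48), as does Klf5 (0.52).

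In the order of the 13 embryonic groups, neighbours overlapped most for Grhl1, in 11 of 12 adjacent pairs, and least for Elf3, in 2 of 12. Elf3 ran from 906 ± 449 CPM (SD, n = 3) in the libraries labelled as deleted at E10 to 38.9 ± 2.41 CPM (SD, n = 2) in hindstomach at E12, a 23.3-fold range of means. Klf4 ran from 413 ± 5.68 CPM in intestine at E18 to 14.6 ± 2.32 CPM in intestine at E14, which overlapped hindstomach at E12. Klf5 ran from 855 ± 262 CPM in the libraries labelled as deleted at E10, above all others, to 107 ± 8.81 CPM in intestine at E12. Ehf was highest in the libraries labelled as deleted at E15 (183 ± 6.33 CPM) and Ovol1 in intestine at E18 (149 ± 4.24 CPM), where the libraries labelled as deleted at E15 overlapped it. Grhl2, Grhl3, Esrp1 and Esrp2 were all highest in forestomach at E14, at 94.7 ± 7.998, 185 ± 12.8, 230.2 ± 16.5 and 125 ± 3.27 CPM. Grhl2 and Esrp1 were both lowest in forestomach at E16, at 13.3 ± 2.80 and 35.1 ± 1.18 CPM (SD, n = 2).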

How the data were processed

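RNA-seq counts of 31 libraries were used, as whole-number read counts per gene symbol with no normalization, as the authors deposited them. The submitters' processing notes name the mm9 build, STAR 2.5.3a, HTSeq, Bowtie2 and MACS2 without their roles. Per the labels' protocols, E12 to E16 epithelium was digested with trypsin and sorted for Epcam, and E18 and adult villi were released with EDTA. Embryonic libraries were made with SMARTer-Seq v4 and adult ones with TruSeq V2, as 75 bp single-end reads. Each adult column has 2 blank cells, which were closed up; all 10 genes lie above the first, so their values were not touched. The table has 2 columns of other samples, which were not used. Chromatin samples of the series (38 ATAC-seq, 5 ChIP-seq) are outside what is reported here.

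Differences were fitted on the counts in R 4.3.3 with edgeR 4.0.16, using TMM scaling, filterByExpr with a minimum count of 10, estimateDisp, glmQLFit and glmQLFTest, with Benjamini-Hochberg adjustment over all genes tested. One fit held the 27 embryonic libraries in 13 groups (17239 genes) and another the 4 adult libraries (12444 genes), since kit and age coincide. All 10 genes passed the filter in both. Standard errors are the log2 fold change over the square root of F. Counts of at most 3 per library are at the floor, and reads without molecular identifiers make intervals and floors cover counting error only. Libraries of 1 group differed by more than counting noise (chi-square per degree of freedom of 1.53 or more) and none was merged; whether that spread is technical was not tested. Where leaving out a library leaves 1 in a group, it is assumed to vary like the other groups. Likeness used log2 CPM with a prior count of 2, over genes with an average log2 CPM of at least 2; for each of the 10 genes the closest of its 2 best matches is named. Promoters were matched by symbol in the RefSeq table.

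The alternatives were another scaling (RLE), no filter, DESeq2 1.42.0, the replicate number as a block, other sets of libraries in the fit, each library left out, and no minimum fold; 2 alternatives, without forestomach at E16 and without hindstomach at E12, were chosen after seeing the data. The 10 genes and the gene lists were chosen with earlier results of these data known, so no list is independent evidence. The text names the 10 genes, members of the lists where a sentence turns on them, and the pattern neighbours; the related genes named beyond a full count were chosen after their values were seen. On simulated counts for forestomach against small intestine at E16, 134 of 200 changed genes were recovered among 16661, with 6 false calls. At a log2 fold change of 1, which is the fold threshold itself, 11 of 50 were recovered. For the adult comparison, 155 of 200 were recovered among 12242, with 25 false calls. In the measured counts 35.0% and 20.4% of all genes were called in these 2 comparisons. Recovery and false calls with that many changed genes were not tested.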

Additional observations from a re-analysis of the deposited data

Results flagged for a closer look

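The change from E12 to E16 differed between organs for 13 gene and organ pairs in the interaction test of the edgeR fit, each called at an adjusted p below 0.05 and a difference of at least 1 on the log2 scale. For forestomach minus hindstomach the differences were -1.78 for Grhl2, 2.47 for Grhl3, -3.61 for Elf3, -1.08 for Klf5 and -1.35 for Esrp2. For forestomach minus small intestine they were 3.31 for Grhl1, -2.53 for Grhl2, -3.13 for Elf3, 1.87 for Klf4, -1.79 for Klf5, -1.69 for Esrp1 and -1.28 for Esrp2. For hindstomach minus small intestine the one such gene was Klf4, at 1.94. All but the last involve forestomach at E16, whose libraries had mesenchyme and muscle markers at 2.76% and 3.30% of counts. The part of these in the differences was not tested. Those with hindstomach also rest on its E12 libraries, with the Cdx2 level given above. Grhl1 against intestine was lost without replicate 1 of the intestine at E12 (1.25, adjusted p = 0.334). It also had an adjusted p of 0.0946 without replicate 2 of forestomach at E12, 0.0898 without replicate 1 of forestomach at E16 and 0.0936 without replicate 2 of intestine at E16. Grhl3 against hindstomach had an adjusted p of 0.0627, 0.0602, 0.0789, 0.0542 and 0.0765 without forestomach replicates 1 and 2 of E12, forestomach replicate 1 of E16, and hindstomach replicates 1 and 2 of E16. Grhl1 against intestine was also lost with only the groups compared (adjusted p = 0.191), and Klf5 against hindstomach with RLE scaling and DESeq2 (-0.88 in both) and with only the groups compared (-0.92). Klf5 was -0.94 without replicate 1 of forestomach at E12, -0.99 without replicate 1 of hindstomach at E12 and -0.95 without replicate 1 of hindstomach at E16.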

How the results depend on the processing

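Of the 89 calls, 27 of 746 values under other settings and 48 of 421 with a library left out were lost, over 19 and 27 of the calls, and 0 changed sign. Of the 161 gene and comparison pairs not called, 76 of 1343 values under other settings and 32 of 729 with a library left out gained a call with the same sign, over 54 and 26 of the pairs, and 22 and 43 values changed sign. No replicate pairing was found: the deviations of same-numbered libraries correlated at -0.07 to 0.27 over 66 pairs of groups (5 above 0.1). With the replicate block, 4 genes were called in the libraries labelled as deleted at E10 against hindstomach; the other counts stayed within 1.5 times. The numbers that follow are counts of the 10 genes called, and deleted at E10 or E15 stands for the libraries labelled so. With only the groups compared: 2, 1 and 0 at E12 (forestomach against hindstomach, against intestine, hindstomach against intestine), 2 for hindstomach against intestine at E14, 5 in hindstomach and 3 in intestine for E14 against E12, 4 for deleted at E10 against hindstomach, and 2 for deleted at E15; calls lost there included ones of Grhl1, Grhl2, Grhl3, Ehf, Klf4 and Esrp1 against intestine at E12. With no minimum fold: 2 for forestomach against hindstomach and 5 for hindstomach against intestine at E12, 4 for forestomach against hindstomach at E14, 8 for forestomach against intestine at E16, 7 and 5 in hindstomach for E14 against E12 and E16 against E14, 5 and 6 in intestine for E16 against E14 and E18 against E16, 4 for deleted at E10 against hindstomach, 3 for deleted at E15, 3 for the hindstomach minus intestine interaction, and 4 in adult. Hindstomach against intestine at E14 gave 0 with no filter and 0 without the groups labelled as deleted at E13 and E15. Deleted at E10 against hindstomach gave 4 with RLE scaling, and adult gave 4 with DESeq2 and 4 with all libraries in 1 fit. Leaving out each library gave ranges of 1 to 2, 2 to 5 and 1 to 5 for the E12 comparisons, 2 to 5 for forestomach and 0 to 1 for hindstomach against intestine at E14, 1 to 2 for hindstomach against intestine at E16, 1 to 3 for intestine E18 against E16, 2 to 4 for deleted at E10 against hindstomach, 3 to 5 and 1 to 6 for forestomach minus hindstomach and hindstomach minus intestine interactions, and 1 to 3 in adult. Without forestomach at E16 or hindstomach at E12 in the fit, every other count stayed within 1.5 times. Of the 161 pairs, 63 were called under at least 1 alternative, and among those 63, 7 values changed sign, each with a library left out. Their ranges over the libraries left out were -1.58 to 8.61 for Ehf in forestomach against intestine at E12 (-0.33 with all, 0.27 without forestomach replicate 1), -5.21 to 3.10 for Grhl3 and -9.30 to 0.90 for Ehf in the forestomach minus intestine interaction (0.62 for Ehf without intestine replicate 1 of E12), and -7.68 to 0.62 for Grhl3 in the hindstomach minus intestine interaction (0.36 without intestine replicate 1 of E12). The values 8.61, -5.21, -9.30 and -7.68 leave out intestine replicate 2 of E12, where the remaining library has 0 counts; they depend on the prior count and are no bounds. RLE scaling moved the median of all genes by up to 0.26 (forestomach, E16 against E14). Grhl3 in intestine at E18 is at the floor of 3 counts per library. The causes were not tested.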
